A study of Homo sapiens with 6 samples.

Results

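The genes described here are 9 components of the Hedgehog pathway: the receptor PTCH1, the co-receptors BOC and GAS1, the transducer SMO, the regulators KIF7 and SUFU, and the transcription factors GLI1, GLI2 and GLI3. They were taken by symbol from a table of 15706 genes, in which 7 of the 9 had a row. SMO and GAS1 did not, and only their promoter sequences are considered here. The set was chosen by pathway but with the fold changes and calls of sgMLL3 over sgNT in these libraries already known, so the members' differences in that comparison are a description and are given without p-values. The cells were MDA-MB-231, an established human line of mesenchymal character from a triple-negative breast cancer, grown untreated in DMEM with serum. In 3 libraries, named sgMLL3, the cells carried a guide RNA against MLL3, the enzyme that methylates histone H3 at enhancers (symbol KMT2C in the table), and their genotype is given as a knockout of MLL3. In 3 libraries, named sgNT, a guide without a target was used and the genotype is given as wild type. The labels call the libraries biological replicates, but do not say whether cells were clones or pools, or whether the numbered guides differed, so the spread between libraries may be in part technical.

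In the pathway, a Hedgehog ligand binds PTCH1 together with a co-receptor and thereby lifts the inhibition that PTCH1 holds over SMO at the primary cilium. Active SMO releases the GLI factors from SUFU, with KIF7 organising the ciliary tip where this takes place. GLI2 is the main activator, GLI3 acts largely as a repressor, and GLI1 is an activator that is itself switched on by the pathway, as are PTCH1 and HHIP. In MDA-MB-231 cells GLI2 is known as a factor that TGF-beta can induce without a Hedgehog ligand, and as an activator of PTHLH, the gene of the parathyroid hormone-related protein of bone metastasis.

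Recovered reads in the listed genes numbered 41401044 to 49514464 in the sgMLL3 libraries and 41240265 to 48244821 in the sgNT libraries. The targeted gene, KMT2C, was read at 1519, 1660 and 1339 normalized counts in sgMLL3 replicates 1, 2 and 3, against 1367, 1379 and 1255 in sgNT replicates 1, 2 and 3. These ranges overlapped, so the transcript level gave no check of the knockout label. All 7 chosen markers of MDA-MB-231 were present, among them VIM, CD44 and AXL, with a summed level of 161739 to 166901 in sgMLL3 and 171857 to 173914 in sgNT libraries. Of 7 luminal markers 4 had a row, summing to 21508 to 25195 in sgMLL3 and 27274 to 29759 in sgNT libraries, whereas ESR1, PGR and FOXA1 had none. Most of that sum was KRT19, with means of 22124 in sgMLL3 and 26872 in sgNT. GATA3 averaged 462 in sgMLL3 and 627 in sgNT, EPCAM 945 and 784, and CDH1 only 4.02 and 5.59. Of 8 leukocyte and endothelial markers 5 had a row, summing to 466 to 585 in sgMLL3 and 602 to 943 in sgNT libraries. In limma, with a Benjamini-Hochberg adjusted p under 0.05 taken as the threshold, 33.2% of 14618 genes passed between the groups. When each library's trend along the GC content and length of transcripts was removed, 10.0% of 14598 genes passed. Both versions are therefore given below, the second as the value with the trend removed.

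Gene-level values pool all transcripts of a gene, and RefSeq lists several starts for some members. Promoters were found for 7 of the 9 members, SMO and GAS1 among them. GLI1 and GLI3 had none, so their promoters were not searched. The 250 bases before 3 of those starts are shown, on GRCh38.p14, 5′ to 3′ on the strand of the gene. PTCH1 is shown at chr9:95509267-95509516, minus strand, because the classical GLI binding motif, GACCACCCA, lies in it as its reverse complement, in capitals. GLI2, the member that differed most, is shown at chr2:120735618-120735867 and at chr2:120792031-120792280, plus strand, with every CG pair in capitals.
PTCH1: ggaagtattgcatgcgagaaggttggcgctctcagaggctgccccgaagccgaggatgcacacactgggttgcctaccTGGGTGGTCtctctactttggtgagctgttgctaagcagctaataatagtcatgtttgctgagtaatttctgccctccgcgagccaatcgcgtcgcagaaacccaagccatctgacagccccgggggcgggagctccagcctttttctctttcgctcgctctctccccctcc
GLI2 upstream start: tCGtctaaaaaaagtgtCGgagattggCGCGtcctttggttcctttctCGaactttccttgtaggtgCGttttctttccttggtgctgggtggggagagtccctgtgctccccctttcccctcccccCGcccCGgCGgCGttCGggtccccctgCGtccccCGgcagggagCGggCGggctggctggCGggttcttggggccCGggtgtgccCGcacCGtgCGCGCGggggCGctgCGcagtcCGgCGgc
GLI2 downstream start: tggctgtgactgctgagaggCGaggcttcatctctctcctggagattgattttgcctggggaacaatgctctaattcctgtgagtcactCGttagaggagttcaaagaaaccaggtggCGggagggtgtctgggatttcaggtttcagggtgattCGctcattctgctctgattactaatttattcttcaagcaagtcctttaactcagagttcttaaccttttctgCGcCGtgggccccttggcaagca

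The motif in the PTCH1 sequence ends 163 bases before the start. Searched on both strands in windows of 300 bases (250 before and 50 after the start), these 9 letters were present in 83 of 35116 RefSeq promoters, or 0.236%. Among the 13 promoters of the members they were present in the 1 shown. They were in none of 131 promoters of the other Hedgehog genes considered below. The GLI2 sequences differ in composition, with a GC content of 68.8% and 26 CG pairs at the upstream start and 48.8% and 6 pairs at the downstream start. Which start was read cannot be told from counts per gene.

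The pathway was read from its inhibitor down to a nearly silent GLI1. Levels between genes were compared as normalized counts per kilobase of merged exons. SUFU, which binds and restrains the GLI factors, was highest, at 296 ± 26.4 in sgMLL3 and 344 ± 29.6 in sgNT libraries (SD, n = 3 each), above 62.5% of the genes tested. KIF7 followed at 111 ± 12.96 in sgMLL3 and 145 ± 3.66 in sgNT, and PTCH1 stood at 49.8 ± 1.29 in sgMLL3 and 54.2 ± 7.64 in sgNT. GLI3 averaged 31.3 ± 5.74 in sgMLL3 and 33.0 ± 6.42 in sgNT, and GLI2 30.2 ± 4.51 in sgMLL3 and 66.0 ± 18.9 in sgNT. BOC, at 5.98 ± 0.978 in sgMLL3 and 5.55 ± 0.532 in sgNT, lay above 5.87% of the tested genes, and GLI1, at 2.61 ± 1.61 in sgMLL3 and 1.81 ± 0.260 in sgNT, above 1.47%. In the order of mean levels, GLI2 and GLI3 overlapped in the sgMLL3 libraries, and GLI2 and PTCH1 overlapped in the sgNT libraries. The other neighbours in the order did not overlap in either group. With the length of the longest transcript in place of merged exons, PTCH1 stood above GLI2 in both groups, and the other places in the order were the same.

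**Figure D1:**
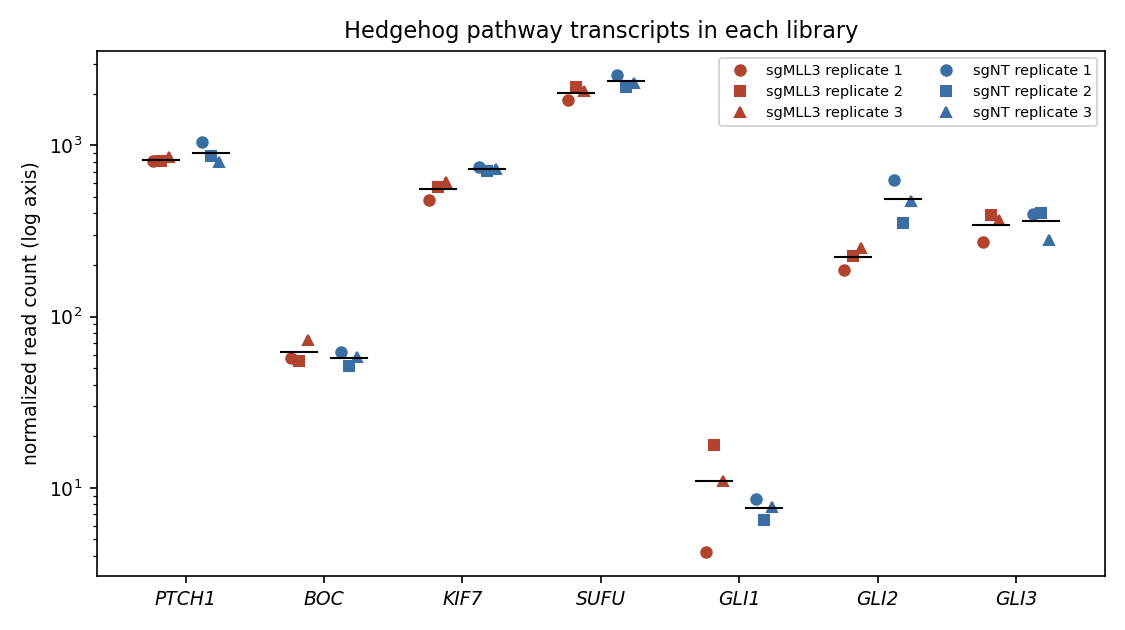
Normalized read counts (log axis) of the 7 members with a row, for 3 sgMLL3 libraries (left of each pair) and 3 sgNT libraries (right), with black lines at the group means. GLI2 lies at 186 to 251 in sgMLL3 and at 351 to 628 in sgNT libraries, while PTCH1, BOC, GLI1 and GLI3 overlap between the groups.

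GLI2, on chromosome 2 (ENSG00000074047.21, 120735623 to 120992653 on GRCh38, plus strand), was the member with the widest difference. It had 186, 227 and 251 normalized counts in sgMLL3 replicates 1, 2 and 3, against 628, 351 and 473 in sgNT replicates 1, 2 and 3. Every sgMLL3 library lay below every sgNT library, and the sgNT libraries differed among themselves more than the sgMLL3 libraries did. Group means were 221 ± 33.1 in sgMLL3 and 484 ± 139 in sgNT (SD, n = 3 each). The recovered reads behind them were 176, 256 and 274 in sgMLL3 and 583, 327 and 490 in sgNT libraries, so counting error was small beside the spread between libraries. On the log2(value + 1) scale the fold change was -1.10 (SE 0.18), or 0.468 of the sgNT level. Trend removal left a difference of -0.91 (SE 0.19). Over the main setting and 23 alternatives it lay between -1.31 and -0.67. It fell short of the threshold in the fits with the trend removed and without sgMLL3 replicate 1 (-0.85) or 2 (-0.92). As the set was chosen with this comparison known, no stability is read from the other fits. Leaving out sgNT replicate 1, the highest library, gave -0.89, or -0.67 with the trend removed. The authors' deposited table gives -1.13 with a standard error of 0.19.

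GLI3, the pathway's main repressor (ENSG00000106571.14, chromosome 7, 41960950 to 42237870, minus strand), was read at 271, 391 and 365 normalized counts in sgMLL3 replicates 1, 2 and 3. The sgNT libraries held 400, 404 and 280, so the groups overlapped over most of their range. The log2 fold change was -0.07 (SE 0.17), and -0.05 (SE 0.17) with the trend removed. GLI3 did not pass in any of the 24 fits. GLI1, the activator that is also a target (ENSG00000111087.10, chromosome 12, 57460135 to 57472262, plus strand), had only 4, 20 and 12 reads in the sgMLL3 libraries and 8, 6 and 8 in the sgNT libraries. Its normalized counts were 4.23, 17.7 and 11.0 in sgMLL3 and 8.62, 6.44 and 7.73 in sgNT. With a mean of 9.29 it fell below the minimum of 10 and was not tested. The sgMLL3 libraries stood on both sides of the sgNT libraries, and the log2 difference of 0.30 became -0.11 without sgMLL3 replicate 2, so at this depth no direction can be given.

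The composition of the GLI transcripts differed with GLI2. Per kilobase of exons, GLI2 made up 49.5%, 43.6% and 48.8% of the GLI1, GLI2 and GLI3 sum in sgMLL3 replicates 1, 2 and 3, against 68.9%, 55.5% and 70.2% in sgNT replicates 1, 2 and 3. The shares did not overlap, with means of 47.3% ± 3.21 in sgMLL3 and 64.9% ± 8.15 in sgNT (SD, n = 3 each). Being made from the same GLI2 counts, the shares restate the GLI2 difference and are not a separate result. The ratio of GLI2 to GLI3 per kilobase was 1.02, 0.866 and 1.03 in the sgMLL3 libraries and 2.34, 1.297 and 2.52 in the sgNT libraries. Replicate 2 had the lowest share of GLI2 in both groups. GLI1 never exceeded 5.95% of the sum. These shares count transcripts per length and say nothing of how much of either protein is processed to an activator or a repressor.

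**Figure D2:**
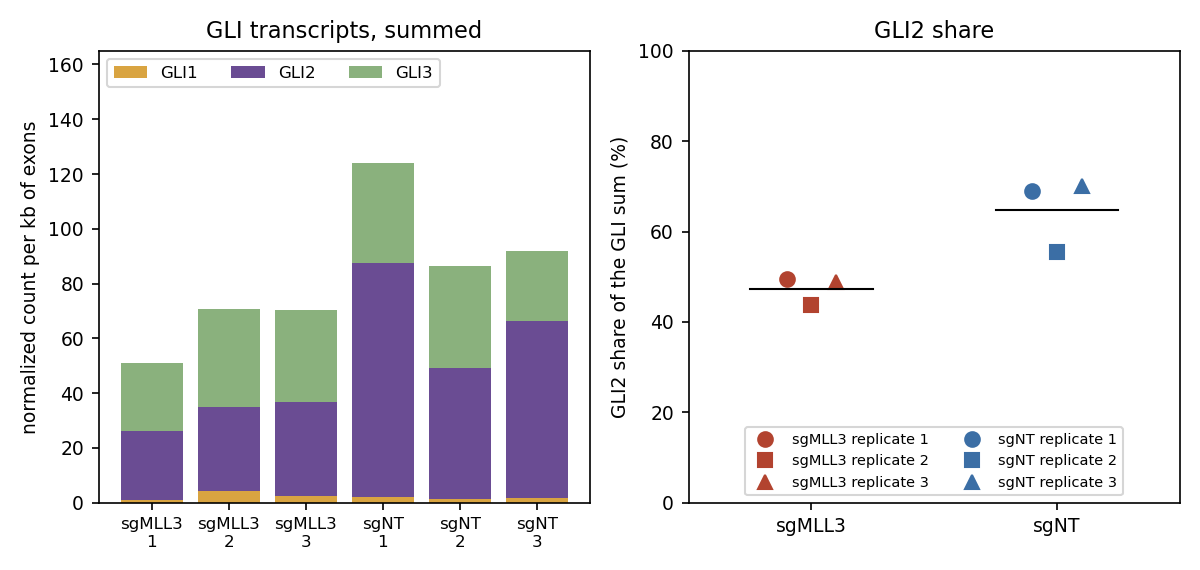
Left, GLI1, GLI2 and GLI3 in each library as stacked normalized counts per kilobase of merged exons. Right, the share of GLI2 in that sum in percent, with black lines at the group means: 43.6% to 49.5% in the 3 sgMLL3 libraries and 55.5% to 70.2% in the 3 sgNT libraries.

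KIF7, the kinesin of the ciliary tip (ENSG00000166813.15, chromosome 15, 89608789 to 89655451, minus strand), had 482, 569 and 608 normalized counts in sgMLL3 replicates 1, 2 and 3, against 744, 708 and 727 in sgNT. The groups did not overlap, and the sgNT libraries lay close together. The log2 fold change was -0.40 (SE 0.12) and passed, but the -0.18 (SE 0.09) left after trend removal did not. KIF7 has the highest GC content of the members tested, 64.1%. It also lost its place past the threshold without sgMLL3 replicate 1 (-0.30) or 2 (-0.42). KIF7 shares 589 exonic bases with TICRR on the opposite strand, whose reads could not be told apart there unless the counting used strand. TICRR itself averaged 784 ± 29.1 in sgMLL3 and 802 ± 125 in sgNT (SD, n = 3 each).

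SUFU (ENSG00000107882.11, chromosome 10, 102503987 to 102633535, plus strand) was read at 1831, 2185 and 2078 normalized counts in the sgMLL3 libraries and 2590, 2195 and 2307 in the sgNT libraries. The groups were separated only by the narrow gap between sgMLL3 replicate 2 and sgNT replicate 2. The log2 fold change of -0.22 (SE 0.10) did not pass, and trend removal left -0.05 (SE 0.08). PTCH1, at once receptor and target (ENSG00000185920.16, chromosome 9, 95442980 to 95517057, minus strand), had 815, 812 and 851 normalized counts in sgMLL3, against 1041, 863 and 795 in sgNT. The sgMLL3 libraries agreed closely and fell within the range of the sgNT libraries. The log2 fold change was -0.11 (SE 0.11), and -0.15 (SE 0.10) with the trend removed. Without sgNT replicate 1 it was -0.0048. PTCH1 shares 711 exonic bases with an antisense transcript that had no row. BOC, the co-receptor (ENSG00000144857.14, chromosome 3, 113211003 to 113287459, plus strand), was read at 57.0, 54.9 and 73.4 in sgMLL3 and 62.5, 51.6 and 58.0 in sgNT libraries. These overlapped, with a log2 fold change of 0.10 (SE 0.25). BOC shares 513 exonic bases with CFAP44 on the opposite strand, which averaged 143 ± 17.8 in sgMLL3 and 93.2 ± 29.6 in sgNT, and is the more uncertain for it.

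Of the 6 members tested, 2 passed as lower (GLI2 and KIF7) and 0 as higher, as in edgeR and DESeq2, against 14.4% and 18.9% of all genes. With the trend removed 1 passed as lower and 0 as higher, against 5.95% and 4.08%. The groups did not overlap, with sgMLL3 lower, in 3 of the 6, against 22.4% of all genes tested, and with sgMLL3 higher in 0. Over both directions, 46.3% of all genes tested did not overlap. Because the set was chosen with this comparison in view, nothing is read from these counts. The median log2 fold change of the 6 was -0.17, beside -0.017 over all genes, and -0.10 beside -0.018 with the trend removed.

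**Figure D3:**
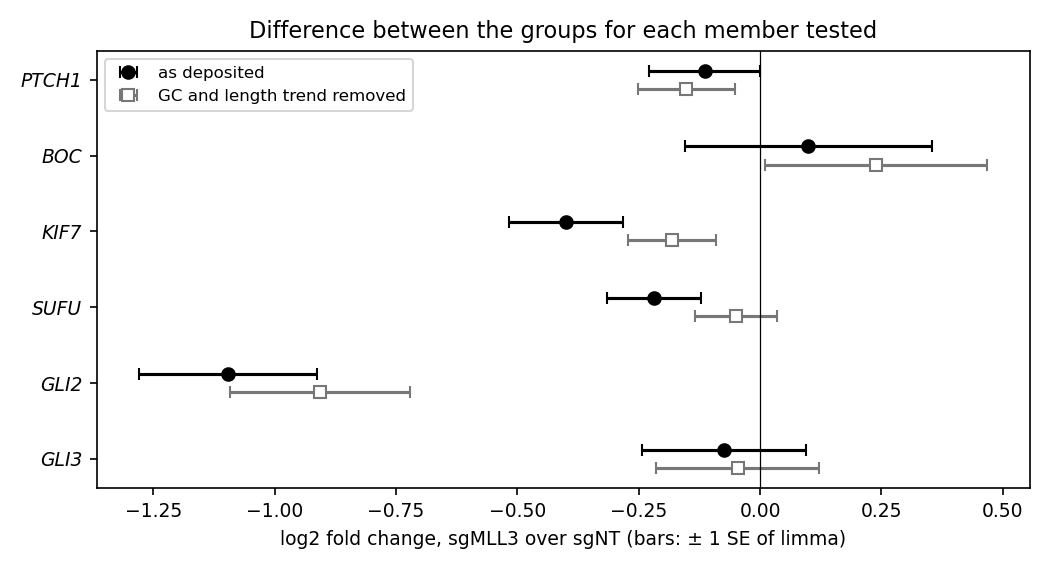
Log2 fold change of sgMLL3 over sgNT for the 6 members tested, with bars of ± 1 SE from limma, as deposited (filled circles) and with the GC and length trend removed (open squares). GLI2 stands at -1.10 and -0.91, and the other 5 lie between -0.40 and 0.24 in both versions.

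The other genes of the pathway were taken from 6 lists with 106 symbols, of which 91 had a row and 90 were tested. In limma 24 of the 90 were higher and 12 lower, against 18.9% and 14.4% of all genes tested. Their median log2 fold change was 0.017, beside -0.017 over all genes. All 24 that were higher had a GC content of 35.2% to 44.4%, and all 12 that were lower had one of 53.0% to 65.2%. With the trend removed 3 were higher and 5 lower, against 4.08% and 5.95% of all genes tested. Of these, 3 and 3 had passed the same way as deposited. The median was then -0.045 beside -0.018.

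Ligands were scarce in both groups. SHH was read at 23.2, 21.3 and 12.8 normalized counts in sgMLL3 and 28.0, 15.0 and 27.0 in sgNT libraries, and DHH at 8.45, 12.4 and 11.0 in sgMLL3 against 10.8, 6.44 and 0.966 in sgNT. Both overlapped, DHH was below the minimum and not tested, and IHH had no row. SHH differed by -0.27 on the log2 scale (SE 0.42, limma adjusted p = 0.655). Of the 7 genes tested for ligands and their release, 0 were higher and 1 was lower, against 18.9% and 14.4% of all genes. Also by edgeR, DESeq2 or an unadjusted p under 0.05, 0 were higher. By the unadjusted limma p 2 were lower, DISP2 and SCUBE1. SCUBE1 was scarce, averaging 10.4 normalized counts in sgMLL3 and 21.2 in sgNT, and its groups overlapped (-1.29, SE 0.60). The gene that passed as lower was DISP2, a relative of the ligand exporter DISP1. It had 359, 391 and 439 normalized counts in sgMLL3 against 618, 571 and 560 in sgNT. Its groups lay well apart, and it fell by 0.56 on the log2 scale (SE 0.12, limma adjusted p = 0.0030) and by 0.50 with the trend removed (adjusted p = 0.0115), a call that was then lost without sgMLL3 replicate 1 or 2.

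Among the receptors, HHIP and the co-receptor CDON were tested and 0 passed in limma, edgeR or DESeq2. As deposited, 1 (HHIP) had an unadjusted limma p under 0.05. With the trend removed CDON did and HHIP did not. CDON stood at -0.098 as deposited and at -0.21 with the trend removed (limma adjusted p = 0.117). HHIP, a membrane protein that binds and sequesters the ligands and is a target of the pathway, had 589, 543 and 459 normalized counts in sgMLL3 and 257, 448 and 505 in sgNT. The lowest sgNT library stood far below the other two, and the groups overlapped. On the log2 scale it stood at 0.44 (SE 0.19, limma adjusted p = 0.078), and -0.026 with the trend removed (adjusted p = 0.960). Single libraries set its call and its direction. Without sgNT replicate 3 HHIP passed as higher (0.63, adjusted p = 0.0136), and without sgNT replicate 1 and with the trend removed it passed as lower (-0.35, adjusted p = 0.0190).

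The 33 regulators of SMO and the GLI proteins, such as kinases, arrestins and ubiquitin ligases, counted 10 higher and 7 lower, against 18.9% and 14.4% of all genes tested. PRKAR1A, the regulatory subunit of protein kinase A, averaged 8454 ± 403 in sgMLL3 and 6221 ± 209 in sgNT (SD, n = 3 each) and was higher by 0.44 (limma adjusted p = 0.00054), but stood at 0.05 after trend removal (adjusted p = 0.621). CSNK1G3, a casein kinase, and CUL3, the cullin that pairs with the GLI-degrading adaptor SPOP, were higher by 0.51 and 0.40 (limma adjusted p = 0.0023 each). Neither passed after trend removal, and CUL3 then stood at -0.046. CUL1, the cullin of the SCF ligase that directs GLI3 processing, was higher by 0.37 and still passed at 0.22 with the trend removed (limma adjusted p = 0.0031 and 0.0273), a call that was then lost in 5 of the 6 fits without 1 library, all but that without sgNT replicate 1. ARRB2, a beta-arrestin that takes part in moving SMO to the cilium, had 1757, 1756 and 1886 normalized counts in sgMLL3 against 2658, 2559 and 2934 in sgNT. It fell by 0.59 on the log2 scale (SE 0.090, limma adjusted p = 0.00017) and by 0.35 with the trend removed (adjusted p = 0.0038). CSNK1G2 (-0.33), EVC, a ciliary partner of SMO (-0.33), and MGRN1, a ubiquitin ligase that lowers SMO (-0.35), were lower, but trend removal took them out of the calls. Their calls were lost without sgMLL3 replicate 1 and, for CSNK1G2 and MGRN1, without sgMLL3 replicate 2. MGRN1 also lost its call without sgNT replicate 2 or 3. After trend removal 1 regulator was higher and 2 were lower, against 4.08% and 5.95% of all genes tested. The lower ones were ARRB2 and GSK3B. GSK3B had not passed as deposited (0.05) and turned to -0.28 with the trend removed, a call lost in 5 of the 6 fits without 1 library.

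Genes of the primary cilium, where SMO and the GLI factors are sorted, counted 14 of 30 higher and 1 lower, with a median of 0.24 beside -0.017 over all genes, of which 18.9% were higher and 14.4% lower. The 14 had a GC content of 35.2% to 43.2%, and the 1 lower gene, INPP5E, one of 61.4%. The smallest adjusted p was that of CEP290, a protein of the ciliary transition zone, with 1015 ± 27.2 normalized counts in sgMLL3 and 635 ± 72.6 in sgNT (0.68, SE 0.11, limma adjusted p = 0.00030). KIF3A, the anterograde motor (0.61), and KIAA0586 (0.68) were higher too. After trend removal CEP290, KIF3A and KIAA0586 stood at 0.22, 0.17 and 0.28, short of the threshold. TTC21B, a retrograde transport subunit, had 575, 498 and 441.3 in sgMLL3 against 340, 251 and 234 in sgNT. It was higher by 0.88 (SE 0.16, limma adjusted p = 0.00056) and by 0.49 with the trend removed (adjusted p = 0.0348). The call with the trend removed was lost in 5 of the 6 fits without 1 library, all but that without sgNT replicate 1. INPP5E, a ciliary lipid phosphatase, was lower at -0.30, and passed neither with the trend removed nor without sgMLL3 replicate 1 or 2 or sgNT replicate 3. After trend removal the higher genes were TTC21B and OFD1 (0.43, adjusted p = 0.0259), a centriolar protein. The lower 1 was TCTN2, a transition zone protein (-0.49, adjusted p = 0.0213). Over all genes 4.08% were then higher and 5.95% lower. The median of the cilium genes was 0.092, beside -0.018 over all genes. OFD1 then lost its call in 5 of the 6 fits without 1 library, and TCTN2 in 3.

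**Figure D4:**
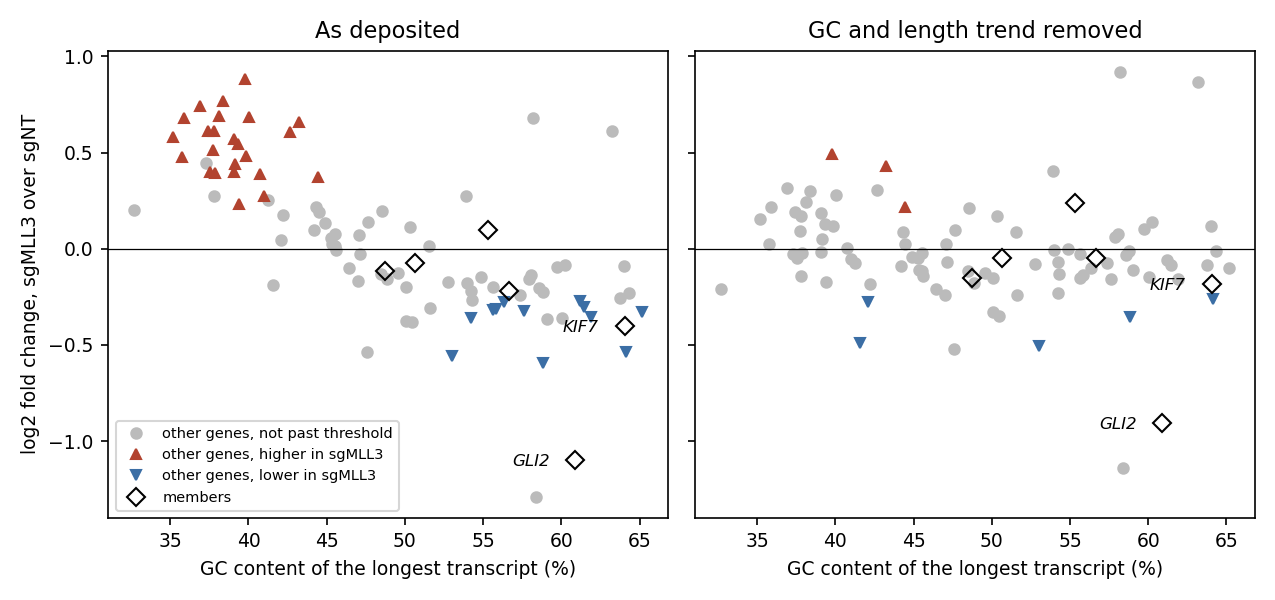
Log2 fold change of sgMLL3 over sgNT (vertical axis) against GC content of the longest transcript in percent (horizontal axis) for 90 other Hedgehog genes and the 6 members tested, as deposited (left) and with the trend removed (right). On the left the 24 higher genes lie at 35.2% to 44.4% and the 12 lower at 53.0% to 65.2%; GLI2 lies at -1.10 on the left and -0.91 on the right.

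Of 14 tested genes reported as GLI targets in other systems, 0 were higher, also by edgeR, DESeq2 or an unadjusted p under 0.05. In limma 3 were lower (4 at an unadjusted p under 0.05), and the median was -0.12 beside -0.017 over all genes. Over all genes tested 18.9% were higher and 14.4% lower. With the trend removed 0 were higher and 1 lower, against 4.08% and 5.95%, and the median was -0.087 beside -0.018. The median GC content of these targets was 54.8%, beside 48.5% over all genes tested. PTHLH, the GLI2 target named above, was scarce, with 14.8, 14.2 and 17.4 normalized counts in sgMLL3 and 11.8, 28.98 and 33.8 in sgNT libraries. The groups overlapped because of sgNT replicate 1, which held the most GLI2 and the least PTHLH. It stood at -0.53 on the log2 scale (SE 0.45, limma adjusted p = 0.379). IGFBP6, which encodes a binding protein of insulin-like growth factors, had 2553, 2533 and 2794 in sgMLL3 against 3471, 3717 and 4257 in sgNT. It fell by 0.53 on the log2 scale (SE 0.092, limma adjusted p = 0.00046) and by 0.26 with the trend removed (adjusted p = 0.0197), where it too kept its call in 1 of the 6 fits without 1 library, that without sgNT replicate 1. The forkhead factors FOXM1 (-0.32) and FOXC1 (-0.27) were lower, but neither passed with the trend removed or without sgMLL3 replicate 1. FOXC1 was also lost without sgMLL3 replicate 2 or sgNT replicate 2 or 3. The related zinc finger factors GLIS2, GLIS3 and ZIC2 were tested and 0 passed in limma, edgeR or DESeq2, with 0 at an unadjusted p under 0.05.

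Among 12453 genes with a mean of at least 50, the 5 whose log2 profile over the 6 libraries lay nearest to that of GLI2 were EFR3B, GYG2, SYNPO, PI16 and ADGRB2. Their mean absolute difference from GLI2 after centring was 0.121, 0.143, 0.170, 0.171 and 0.171 log2 units, beside a median of 0.542 over all genes ranked. Of these, SYNPO, an actin-associated protein, had the highest counts, at 483 ± 50.9 in sgMLL3 and 951 ± 54.7 in sgNT (SD, n = 3 each). GYG2, a glycogenin that primes glycogen synthesis, averaged 259 ± 9.79 in sgMLL3 and 550 ± 67.8 in sgNT, and PI16, a peptidase inhibitor, 49.0 ± 13.7 in sgMLL3 and 133 ± 47.8 in sgNT. Being chosen for a profile like that of GLI2, these genes are lower in sgMLL3 libraries by that choice, and their values are a description. Of 9 fibroblast markers 4 had a row (COL1A1, COL1A2, COL3A1 and PDGFRB), summing to 1012 to 1105 in sgMLL3 and 1732 to 1908 in sgNT libraries. All but COL3A1 passed as lower, and with the trend removed 1 did, COL1A2. The other markers of the list, PDGFRA, LUM, DCN, FAP and THY1, had no row, so their levels are not known here. Of the leukocyte and endothelial markers, CD14 passed as lower as deposited (-0.69) but not with the trend removed. PTPRC passed as lower only with the trend removed (-0.76), and 0 of that list were higher. The part of other cells in the GLI2 difference was not tested. Fewer cells with a transcript and less RNA per cell cannot be told apart in bulk libraries.

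**Figure D5:**
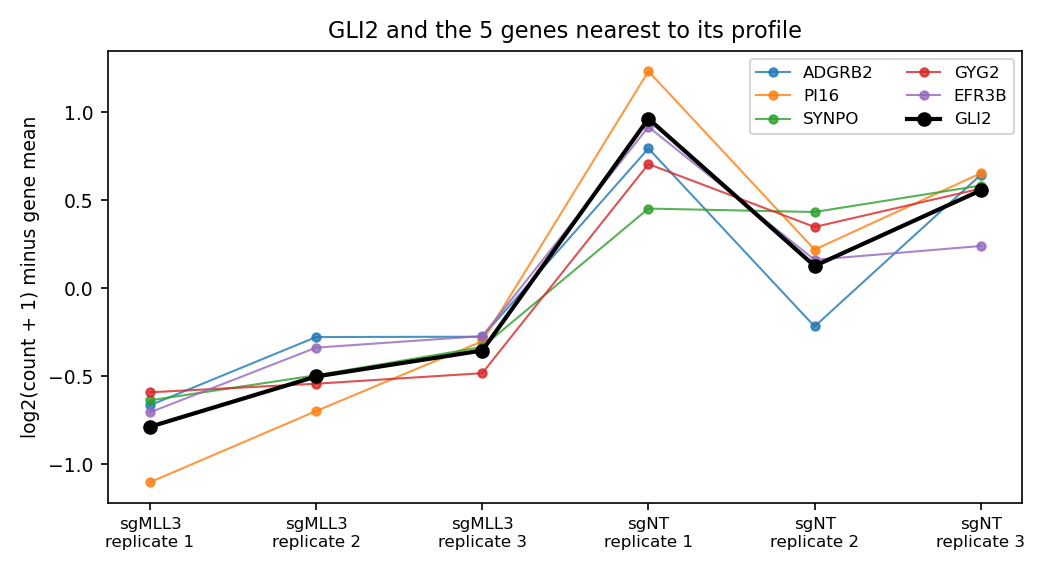
Log2(count + 1) minus the mean of each gene (vertical axis) for GLI2 (black) and the 5 genes nearest to its profile, in 3 sgMLL3 libraries (left) and 3 sgNT libraries (right); lines only join the points of 1 gene, since replicates have no order. All 6 genes are lower in sgMLL3 libraries, and GLI2 is highest in sgNT replicate 1.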

How the data were processed

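RNA-seq of 3 sgMLL3 and 3 sgNT libraries was used. The submitters' processing notes name FastQC, the aligner STAR 2.4.0, the read counter featureCounts 1.5.0, DESeq2 1.30.1 and the build GRCh38.p13. Which annotation was counted, whether strand was used and how rows were filtered is not given in the sources used here. Values are normalized counts as the authors deposited them, a signal made by dividing reads by 1 size factor per library. Per the file headers the table also holds log2 fold changes, the Wald statistic as a score, and p-values by the authors. Each of the 15706 genes had at least 1 read in all 6 libraries, so rows of genes at 0 in some library are not used here. Every value was a whole multiple of a common step (within 0.01 of a whole number for 100% of values), which gave back the reads.

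Groups were compared with limma 3.58.1 in R 4.3.3, its prior variance following the mean, on log2(value + 1), for genes with a mean of at least 10, two-sided, Benjamini-Hochberg over 14618 genes. For trend removal, natural splines with 5 terms each of GC percent and log2 length of the longest GENCODE 29 transcript were subtracted per library (14598 genes). edgeR 4.0.16 and DESeq2 1.42.0 were run on recovered reads as alternatives. Merged exon lengths and coordinates are those of GENCODE 29 on GRCh38, which held 15681 of the gene IDs; promoters are those of RefSeq on GRCh38.p14. The scripts were tested on simulated data.

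Members and lists were chosen with earlier results of these data known. Named genes were KMT2C, the members, the ligands, HHIP, PTHLH, up to 4 genes past the threshold per direction and list, and the 5 nearest to GLI2; DISP1, CDON, GSK3B, OFD1, TCTN2, the GLIS and ZIC factors, the genes that overlap members and the markers were named outside this rule; 1 gene that the rule names is not reported here. Deviations of same-numbered libraries correlated weakly (0.066, 0.0063 and 0.129), and the main fit used no pairing. Fits with the replicate number as a block are given as alternatives below.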

Additional observations from a re-analysis of the deposited data

How the results depend on the processing

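Over 24 fits GLI2 lay between -1.31 and -0.67 and KIF7 between -0.49 and -0.13, a description, since the members were chosen with this comparison known. The counts moved by less than 1.5 times with pseudocounts of 0.5 and 5, no filter on low values, a minimum mean of 50, quantile normalization, TMM scaling, edgeR and DESeq2. After removal of the GC and length trend, 1463 genes in place of 4859 passed, 1 member in place of 2 was lower, and 3 and 5 other Hedgehog genes in place of 24 and 12 were higher and lower. The fits without 1 library gave 2143 to 6168 genes, 1 to 2 members lower and 0 higher, and 18 to 27 and 3 to 17 other Hedgehog genes higher and lower. The lowest counts of genes and of other Hedgehog genes came without sgMLL3 replicate 1 (2143 genes, 3 lower), sgMLL3 replicate 2 (2499, 5 lower) and sgNT replicate 3 (3154, 6 lower). With the trend removed as well, a setting added after the data were seen, 379, 415 and 604 genes passed without sgMLL3 replicates 1, 2 and 3, and 3600, 732 and 886 without sgNT replicates 1, 2 and 3. The ranges then were 0 to 1 members lower, and 0 to 9 and 1 to 13 other genes, with the highest counts without sgNT replicate 1. Fits on 5 libraries leave 1 group with 2.

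Whether the replicate numbers pair the libraries is not settled. The deviations of same-numbered libraries correlated at only 0.066, 0.0063 and 0.129. Replicates 1 and 3 correlated best with their own number, and replicate 2 did not. With the replicate block 6265 genes, 2 members lower and 27 and 17 other Hedgehog genes passed, and with the block and the trend removed 1313 genes, 1 member and 4 and 5 other genes. CUL3 changed sign to -0.046 with the trend removed, with or without the block, and, with it removed, to -0.037, -0.031 and -0.070 without sgMLL3 replicates 1, 2 and 3, and -0.033, -0.068 and -0.036 without sgNT replicates 1, 2 and 3. GSK3B stood at 0.05 as deposited and -0.28 with the trend removed. HHIP, at 0.44 as deposited, stood at -0.35 without sgNT replicate 1 and with the trend removed. By the longest transcript 12 of the 14 places in the order of levels were the same, PTCH1 and GLI2 changing places in sgNT. Trend removal assumes that differences along GC content are not those of interest; the cause of that trend was not tested. Depth limits GLI1, SHH, DHH, SCUBE1 and PTHLH, which had means of 8.34 to 21.2 normalized counts.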
